A study of Mus musculus with 22 samples.

Results

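The response of the mouse hippocampus to kainate was compared between neurons and glia, gene by gene, as the difference between the kainate effect in neuronal nuclei and the kainate effect in glial nuclei. All 11 mRNA-seq libraries among the 22 samples of the series were used, since each of them belongs to an arm of that difference. The arms were kainate neurons (n = 3), sham neurons (n = 3), kainate glia (n = 3) and sham glia (n = 2). Neurons are nuclei sorted as positive for NeuN, a nuclear protein of most mature neurons, and glia are the NeuN-negative nuclei, a gate that takes in astrocytes, oligodendrocytes and their precursors, microglia and vascular cells together. The nuclei came from the left hippocampus, contralateral to the injection, of adult male C57/BL6N mice that were acquired at 8 weeks of age and kept for 4 weeks before the experiment. Kainate mice received 70 nl of 20 mM kainate above the right hippocampus and sham mice 0.9% NaCl, and tissue was taken at 24 h. Only kainate mice with convulsive seizures were kept. In each treatment 8 mice were pooled into 3 samples of 2 or 4 mice, so a replicate is a pool and differences between single animals are not seen. The labels name no transgene or other agent.

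Kainate activates ionotropic glutamate receptors and, as an agonist placed in the brain, starts a status epilepticus that spreads to the other hemisphere. Neurons that fire strongly switch on immediate early genes, which encode transcription factors such as Fos and Egr1, and then effector genes for synapses, neuropeptides and growth factors. Astrocytes respond to injury and seizures by becoming reactive, with more intermediate filaments, protease inhibitors and acute-phase proteins, while microglia lower their surveillance genes and raise cytokines and chemokines. A difference between neurons and glia therefore can come from a larger rise in the NeuN-positive nuclei, from a larger rise in the NeuN-negative nuclei, from a fall on a single side, or from effects of opposite sign.

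Library totals ranged from 12058875 to 45428465 counts, and 40714 genes were tested. The marker of the sort, Rbfox3, which encodes NeuN, measured 219, 272 and 171 CPM (counts per 1000000 of the normalised library size) in kainate neurons, 278, 213 and 197 CPM in sham neurons, 23.8, 49.2 and 39.2 CPM in kainate glia and 26.3 and 36.1 CPM in sham glia, and its kainate effect did not pass the threshold in either cell type. Values of a group stand here in the order of the replicate numbers 1, 2 and 3, and the sham glia values are those of replicates 1 and 3, because 1 sham glia preparation failed. The RNA input was 0.05 ng, amplified over 15 PCR cycles, for sham glia 1 and kainate glia 2 (the low-input libraries below) and 1 ng over 10 cycles elsewhere. The summed CPM of 10 mature oligodendrocyte markers was 285 to 506 in sham neurons and 42911 and 9359.8 in sham glia, so replicates of the same cell type stood far apart. That of 10 neuron markers was 4676 to 8528 in sham neurons and 1242 and 789.7 in sham glia. RNA carried over between the sorted fractions cannot be told apart from expression there, and its part in the effects was not tested. In the fit, the replicate number entered as a block term for neurons and another for glia, which sets each kainate library against the sham library of the same number. The neuronal effect rests on 3 such pairs and the glial effect on pairs 1 and 3. Kainate glia 2 has no sham partner and its values, given below, do not enter the glial effect.

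The kainate effect differed between neurons and glia for 788 genes, 1.94% of those tested, at a false discovery rate (FDR) below 0.25, the threshold of the study. It was higher in neurons for 502 genes (1.23%) and higher in glia for 286 (0.702%). "Higher in neurons" means a positive log2 difference of neurons minus glia, which takes in genes that fell in glia. In the same fit 1299 genes rose (3.19%) and 773 fell (1.9%) in neurons, 5.09% together, while 1194 rose (2.93%) and 1163 fell (2.86%) in glia, 5.79% together. Of 617 genes called in both cell types with the same sign, 554 were not called for the difference. Predicted genes, clones and pseudogenes made up 108 of the 788 called genes and 20309 of the 39926 not called. The 1.94% is therefore a low background for lists made from known genes.

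The calls depend on the block. Without it 1 gene, Cd1d1, passed the threshold, with the pool as the block 7 were higher in neurons and 2 in glia, and with a block shared by both cell types 32 were higher in neurons and 22 in glia. All 788 differences kept their sign in these fits. Of the 40 gene lists below, none had a member called without the block, 3 had 1 each with the pool as the block (none of them astrocyte lists) and 13 had 1 or 2 with the shared block, and the homeostatic astrocyte list had 0 in all of these. Both fractions of a pool of mice came from the same tissue, which the pool block takes into account and the block used here does not. Without the low-input libraries, which leaves pair 3 alone for glia, 184 genes were higher in neurons and 90 in glia, and 244 of the 788 were still called. Without kainate glia 3, which leaves pair 1 alone with its low-input sham library, 802 were higher in neurons and 1586 in glia, and 616 of the 788 were still called. The same counts were 191 and 92 without sham glia 1, 235 and 122 without kainate glia 1 and 954 and 1829 without sham glia 3. Among neurons they were 338 and 190 without kainate neurons 3, 346 and 191 without sham neurons 3, 642 and 553 without kainate neurons 2 and 641 and 551 without sham neurons 2. Below, list counts are given without the low-input libraries and as the range over single libraries left out, and named genes are given where a call ended without the low-input libraries, kainate glia 1, 2 or 3, sham glia 1 or 3, or kainate neurons 1, 2 or 3, and where a call was kept but its difference moved by over 1.5 times when a library was left out. Without a sham neuron library the same named calls were lost as without the kainate library of its number, except that Cebpb kept its call without sham neurons 1. Where sham glia 1 alone ended the same calls as the low-input libraries together, the values of the latter are given.

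The 788 genes fall into classes by their effect in each cell type. The largest class fell in glia with no call in neurons (240 genes), followed by genes that rose in neurons only by call (173), rose in glia only by call (152) and fell in neurons only by call (69). Rises called in both were steeper in glia for 37 genes and steeper in neurons for 16. Called falls in both were steeper in glia for 9 genes and in neurons for 1. Effects had opposite signs, each called, for 56 genes (0.138% of those tested). For the remaining 20 and 15 genes, higher in neurons and in glia, neither effect was called by itself. In sham nuclei, 6.25% of the genes that fell in glia with no call in neurons and 23.7% of those that rose in neurons with no call in glia had a higher level in neurons than in glia, beside 47.1% of the genes not called. The sham levels are part of the difference by which the genes were chosen, so the choice itself sways these shares.

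**Figure D1:**
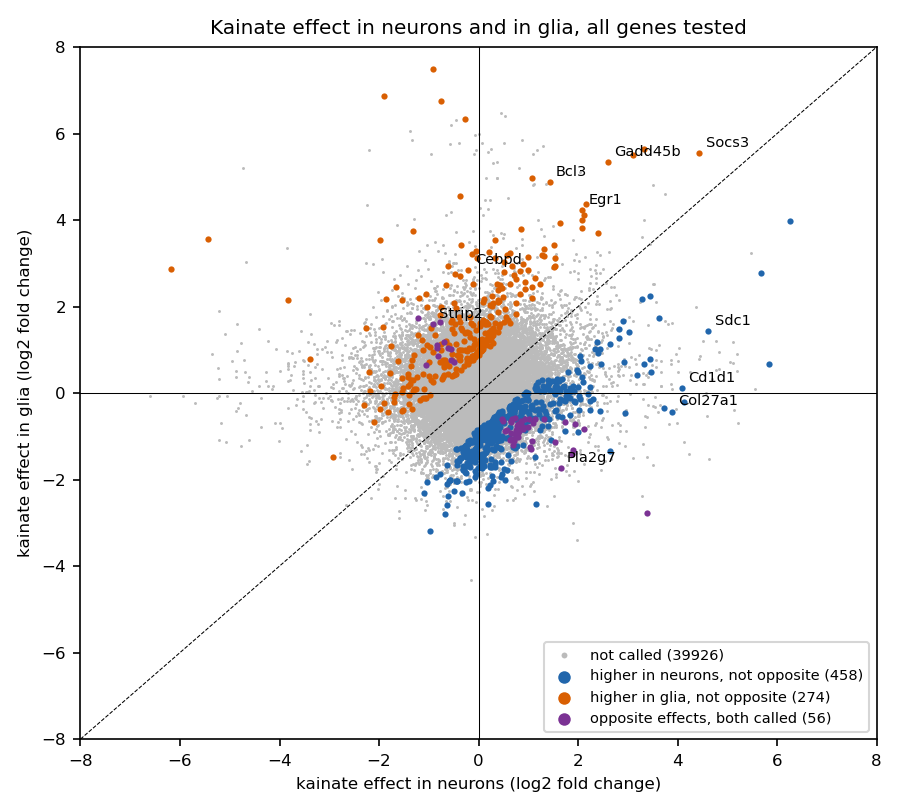
Each point is 1 of the 40714 genes tested, with the kainate effect in neurons on the x axis and in glia on the y axis, both as log2 fold changes of kainate over sham from the fit with the replicate block, and the dashed line marks equal effects. The 458 blue and 274 orange genes were called as higher in neurons or in glia without opposite effects, and the 56 purple genes were called in both cell types with opposite signs.

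Col27a1, a fibrillar collagen gene (chr4:63214004-63334991, mm10), had the smallest p among the genes with a higher effect in neurons. Col27a1 measured 133, 289 and 188 CPM in kainate neurons and 5.91, 19.1 and 18.6 CPM in sham neurons, and 53.9, 86.2 and 68.2 CPM in kainate glia and 87.2 and 76.9 CPM in sham glia. Every kainate neuron library lay above all sham neuron libraries, and its neuronal mean rose from 14.6 ± 7.49 to 203 ± 79.3 CPM (SD, n = 3), above the level of glia. The log2 difference of neurons minus glia was 4.32 ± 0.32 SE, with an FDR of 1.04e-13, a 19.9-fold difference between the effects. Cd1d1, which presents lipid antigens to natural killer T cells, was the third by p, after Pla2g7, which is described with the opposite effects. Cd1d1 measured 51.4, 83.7 and 81.0 CPM in kainate neurons and 4.70, 3.47 and 4.45 CPM in sham neurons, and 9.60, 12.1 and 13.04 CPM in kainate glia and 12.7 and 8.48 CPM in sham glia. It rose in neurons alone by call, from below the sham glia level to above it, with a difference of 3.98 ± 0.38 SE and an FDR of 5.36e-10. Only uniquely mapped reads were counted, so reads shared with its near-identical neighbour Cd1d2 would be lost and its level is uncertain.

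Gipr, the receptor for the incretin hormone GIP, measured 80.1, 38.1 and 169.9 CPM in kainate neurons against 5.84, 5.86 and 6.51 CPM in sham neurons. In glia it measured 27.8, 24.5 and 53.8 CPM after kainate and 73.7 and 33.2 CPM in sham, lower after kainate in pair 1 and higher in pair 3, and the difference was 4.08 ± 0.43 SE (FDR 8.11e-09). Sdc1 encodes syndecan-1, a heparan sulfate proteoglycan of the cell surface. Sdc1 measured 45.3, 48.4 and 38.7 CPM in kainate neurons and 0.671, 2.21 and 2.55 CPM in sham neurons, and 14.4, 20.3 and 17.7 CPM in kainate glia and 4.98 and 6.99 CPM in sham glia. Sdc1 rose in both cell types with no overlap between treatments, by 4.62 in neurons and 1.43 in glia on the log2 scale, and the neuronal rise was larger (difference 3.19 ± 0.42 SE, FDR 2.99e-06). Cdk18, a cyclin-dependent kinase of the PCTAIRE family, had neuronal pair ratios of 1.87, 3.09 and 2.38 and glial pair ratios of -0.75 and -0.077 (log2). Megf11, a transmembrane protein with EGF repeats, had ratios of 1.73, 2.42 and 2.57 in neurons and -0.77 and -0.0054 in glia. Prex1, an activator of the small GTPase Rac, had ratios of 1.47, 2.40 and 2.21 and -0.22 and -0.072. In these last 3 genes the rise was called in neurons and not in glia, with differences of 2.86, 2.63 and 2.18.

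**Figure D2:**
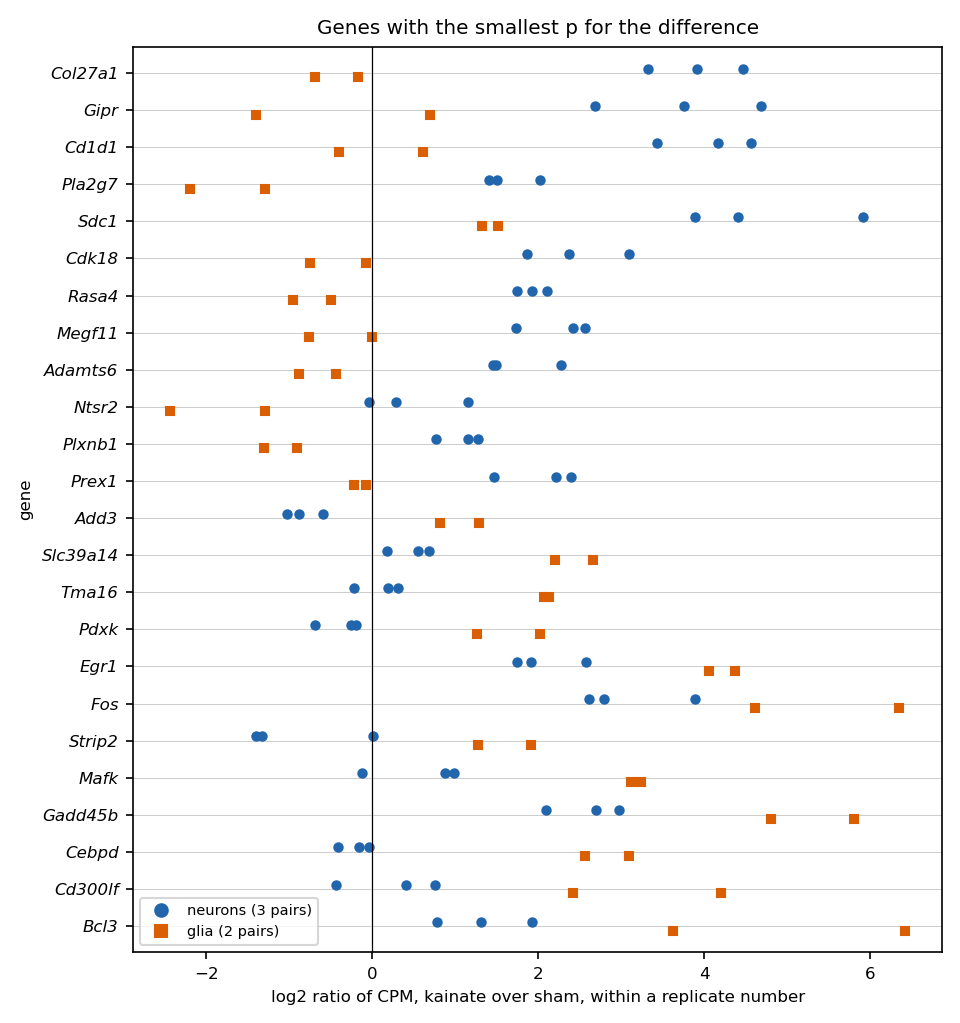
Each row is a gene, 12 with a higher effect in neurons above and 12 with a higher effect in glia below, and the x axis is the log2 ratio of normalised CPM, kainate over sham, within a replicate number. The 3 neuronal ratios (blue circles) lay above both glial ratios (orange squares) in the upper 12 genes and below them in the lower 12, which the choice of genes required.

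Activity-dependent genes of neurons rose in both sorted fractions, and most were not called for the difference. Of 27 activity-regulated effectors, 24 rose and 0 fell in neurons, and 21 rose and 0 fell in glia, while 4 were called as higher in neurons and 2 as higher in glia (22.2%, beside 1.94% of all genes tested, with 1 called without the low-input libraries and 1 to 9 with any 1 library left out). Rgs2, a brake on G protein signalling, measured 84.4, 47.8 and 66.8 CPM in kainate neurons and 34.8, 17.9 and 12.6 CPM in sham neurons. All kainate values lay above the sham values, whereas the glial pair ratios of -0.41 and 0.70 had opposite signs, and the difference was 1.55 ± 0.36 SE (FDR 0.0131). Pcsk1, a protease that processes prohormones, had neuronal ratios of 1.16, 1.41 and 2.13 and glial ratios of -0.48 and 0.62 (difference 1.44 ± 0.36 SE, FDR 0.0311). In the opposite direction, Plat, tissue plasminogen activator, rose in glia with pair ratios of 1.55 and 1.29 and had neuronal ratios of 0.25, 0.032 and 0.67 (difference -1.11 ± 0.29 SE, FDR 0.0401). Calls were lost without the low-input libraries or sham glia 1 alone for Rgs2 (0.99), Pcsk1 (0.94) and Plat (-0.98) and without kainate glia 1 for Rgs2 (0.97), Pcsk1 (0.92) and Plat (-0.998) (log2 differences in parentheses). Among neurons, calls were lost without kainate neurons 3 for Pcsk1 (1.17).

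Among 24 neuropeptides and granins, 3 were called as higher in neurons and 0 as higher in glia (12.5%, with 3 called without the low-input libraries and 3 to 6 with any 1 library left out). Trh, the precursor of thyrotropin-releasing hormone, measured 165, 84.9 and 214 CPM in kainate neurons and 1.01, 1.78 and 2.90 CPM in sham neurons. In glia it measured 12.3, 14.96 and 35.1 CPM after kainate against 0 and 3.87 CPM in sham, the first of these from a library without a single Trh count. Trh rose in both fractions, by 6.25 in neurons and 3.99 in glia (log2), and the difference was 2.27 ± 0.52 SE (FDR 0.0128). Gal, the precursor of galanin, measured 30.1, 20.01 and 20.9 CPM in kainate neurons and 0.134, 0.402 and 0.709 CPM in sham neurons, and 3.57, 2.88 and 5.45 CPM in kainate glia and 0.0639 and 1.44 CPM in sham glia. Its difference was 2.90 ± 0.68 SE (FDR 0.0170). The part of RNA carried over from neurons in the glial values of Trh and Gal was not tested. Both differences rest on glia pair 3. Without kainate glia 3 they turned to -4.99 for Trh and -0.055 for Gal, without sham glia 3 to -5.03 and -0.022, and neither was called. Scg3, a granin of secretory vesicles, fell in glia (pair ratios -0.65 and -0.996) with neuronal ratios of 0.098, 0.61 and 0.22, and was called for the difference.

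Of 18 MAP kinase phosphatases and Sprouty genes, 10 rose and 0 fell in neurons, and 9 rose and 0 fell in glia, and 2 were called as higher in neurons (11.1%, 1 called without the low-input libraries and 1 to 3 with any 1 library left out). These were Spred1, an inhibitor of Ras and MAP kinase signalling (difference 1.20 ± 0.30 SE, FDR 0.0318), and Dusp6, a phosphatase of ERK (1.06 ± 0.31 SE, FDR 0.0993). Of 35 activin, TGF-beta and BMP genes, 3 were called, all as higher in neurons (8.57%, 1 called without the low-input libraries and 1 to 7 with any 1 library left out). Smad7, an inhibitor of TGF-beta signalling, measured 56.4, 48.0 and 29.1 CPM in kainate neurons and 22.3, 12.5 and 14.1 CPM in sham neurons, with glial pair ratios of 0.082 and 0.078. Tgfbr2, a receptor for TGF-beta, had ratios of 1.33, 1.41 and 1.74 in neurons and -0.37 and 0.43 in glia. Inhba, the activin A subunit, rose in both, from 18.5, 12.7 and 20.4 to 295, 76.2 and 203 CPM in neurons and from 3.898 and 7.04 to 16.1, 12.4 and 34.1 CPM in glia, more in neurons (difference 1.12 ± 0.34 SE, FDR 0.129). The call for the difference ended without the low-input libraries or sham glia 1 alone for Spred1 (0.75), Dusp6 (0.76), Tgfbr2 (1.08) and Inhba (1.01) and without kainate glia 1 for Spred1 (0.73), Dusp6 (0.75), Tgfbr2 (1.06) and Inhba (0.996). Of the neuronal libraries, calls ended without kainate neurons 1 for Inhba (0.78) and without kainate neurons 3 for Inhba (1.11).

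Of 38 neurotrophins, growth factors and receptors, 11 rose and 4 fell in neurons, and 11 rose and 3 fell in glia, and 2 were called as higher in neurons and 1 as higher in glia (7.89%, 1 called without the low-input libraries and 1 to 9 with any 1 library left out). Vegfa, vascular endothelial growth factor A, rose in both with neuronal ratios of 1.53, 1.85 and 2.71 and glial ratios of 0.63 and 1.11 (difference 1.16 ± 0.30 SE, FDR 0.0430). Ntrk2, the receptor for BDNF, had an effect of 0.37 in neurons and -0.54 in glia, neither called, with a called difference of 0.903. Tgfa, a ligand of the EGF receptor, fell in neurons by 0.502 and rose in glia by 0.71, with a difference of -1.21. With glial libraries left out, calls ended without the low-input libraries or sham glia 1 alone for Vegfa (0.92) and Ntrk2 (0.92) and without kainate glia 1 for Vegfa (0.902) and Ntrk2 (0.91). Calls ended also without kainate neurons 1 for Ntrk2 (0.86) and without kainate neurons 3 for Vegfa (0.82) and Ntrk2 (0.95).

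Among ion channels and transmitter receptors, several called differences came with falls in glia. Of 40 potassium channel genes, 4 were called as higher in neurons and 1 as higher in glia (12.5%, 0 called without the low-input libraries and 0 to 7 with any 1 library left out). Kcnk1, a background potassium channel, rose in neurons (ratios 0.47, 1.09 and 1.07), with glial ratios of -0.71 and -0.14. Kcna2, a delayed rectifier of axons, fell in glia (ratios -0.999 and -1.10) with neuronal ratios of -0.15, 0.38 and -0.17, and Kcna3, a relative known from immune cells, rose in glia (ratios 1.10 and 0.87) with neuronal ratios of -0.40, 0.12 and -0.57. Of 29 sodium, calcium and HCN channel genes, 2 were called as higher in neurons and 1 in glia (10.3%, 0 called without the low-input libraries and 0 to 6 with any 1 library left out). Cacna2d2, an auxiliary calcium channel subunit, and Hcn3, a pacemaker channel subunit, rose in neurons by 0.86 and 1.002 (log2), with differences of 1.29 ± 0.33 SE and 1.17 ± 0.33 SE. The third, Cacna1d, a pore-forming calcium channel subunit, had a difference of -0.89. The call was not kept without the low-input libraries or sham glia 1 alone for Kcnk1 (1.01), Kcna2 (1.12), Kcna3 (-1.16), Cacna2d2 (0.98), Hcn3 (0.87) and Cacna1d (-0.85), without kainate glia 1 for Kcnk1 (0.99), Kcna3 (-1.17), Cacna2d2 (0.96), Hcn3 (0.86) and Cacna1d (-0.87) and without sham glia 3 for Cacna1d (-0.93). On the neuronal side the call ended without kainate neurons 1 for Cacna1d (-0.96) and without kainate neurons 3 for Kcna3 (-1.12), Cacna2d2 (1.14) and Cacna1d (-0.71).

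All 3 called glutamate receptor genes of 22 fell in glia (13.6%, 2 called without the low-input libraries and 1 to 4 with any 1 library left out). Grin2c, an NMDA receptor subunit, measured 56.1, 22.8 and 6.49 CPM in kainate glia and 163 and 56.1 CPM in sham glia, against 2.92, 2.14 and 3.24 CPM in kainate neurons and 1.75, 2.53 and 7.12 CPM in sham neurons. Within both glial pairs kainate was lower, the neuronal groups overlapped, and the difference was 1.98 ± 0.42 SE (FDR 0.00472). Grm3, a metabotropic receptor that astrocytes also carry, had glial ratios of -1.06 and -2.15 and neuronal ratios of -0.71, 0.48 and -0.49, and Grin3a had -0.86 and -1.02 and -0.16, 0.40 and -0.12. Of 19 GABA genes, Slc6a11, the GABA transporter GAT-3 of astrocytes, and Gabrg1, a GABA-A receptor subunit, were called (10.5%, 1 called without the low-input libraries and 1 to 4 with any 1 library left out). Slc6a11 fell in glia with ratios of -1.20 and -2.23 and Gabrg1 with ratios of -1.31 and -1.13, and their neuronal effects of -0.17 and 0.17 were not called. Calls were lost without the low-input libraries or sham glia 1 alone for Grin3a (1.07) and Gabrg1 (1.31), without kainate glia 1 for Grin3a (1.05) and Gabrg1 (1.29), without kainate glia 3 for Grin2c (1.18), Grm3 (0.80) and Grin3a (0.87) and without sham glia 3 for Grm3 (0.84) and Grin3a (0.91). The call was kept but the difference moved by over 1.5 times without kainate glia 3 for Slc6a11 (1.004) and without sham glia 3 for Grin2c (1.22).

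Of 38 axon guidance and regeneration genes, 3 were called as higher in neurons and 0 as higher in glia (7.89%, 2 called without the low-input libraries and 2 to 5 with any 1 library left out). Ecel1, an endopeptidase induced in injured neurons, measured 34.9, 34.9 and 36.3 CPM in kainate neurons and 9.27, 9.96 and 8.86 CPM in sham neurons. The neuronal groups did not overlap, glia measured 22.1, 20.02 and 17.8 CPM after kainate and 28.2 and 18.1 CPM in sham, and the difference was 2.10 ± 0.35 SE (FDR 1.69e-04). Stmn4, a regulator of microtubules, rose in neurons by 0.71 with -0.55 in glia, and Sema6d, a semaphorin, fell in glia by 0.85 with 0.21 in neurons. Of the IL-6 family list, Cntfr alone was called as higher in neurons. This receptor for ciliary neurotrophic factor rose there (ratios 0.16, 0.78 and 1.44) and fell in glia (ratios -0.67 and -0.76). The call for the difference ended without the low-input libraries or sham glia 1 alone for Sema6d (0.999) and without kainate glia 1 for Sema6d (0.98).

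Among the genes with a higher effect in glia, Cebpd and Gadd45b rose in glia in every pair. Cebpd (chr16:15887286-15891031) encodes C/EBP delta, a transcription factor of the acute-phase response. Cebpd measured 58.8, 42.99 and 39.0 CPM in kainate neurons and 78.4, 44.3 and 43.5 CPM in sham neurons, and 293, 166 and 122 CPM in kainate glia and 34.3 and 20.5 CPM in sham glia. All kainate glia libraries lay above both sham glia libraries, while kainate and sham neurons overlapped. The difference was -3.04 ± 0.30 SE, with an FDR of 8.27e-10. Gadd45b (chr10:80930073-80932204), a stress-induced gene linked to growth arrest and DNA demethylation, rose in both. Gadd45b measured 74.1, 39.2 and 70.1 CPM in kainate neurons and 17.3, 5.97 and 8.83 CPM in sham neurons, and 525, 129 and 118 CPM in kainate glia and 9.33 and 4.12 CPM in sham glia. No kainate library overlapped its sham group, and the rise was 2.60 in neurons and 5.35 in glia on the log2 scale (difference -2.74 ± 0.33 SE, FDR 1.90e-07). Exons of Cebpd overlap Spidr on the other strand, and the strand setting of the counting is not given in the sources used here, so their reads cannot be told apart.

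Immediate early transcription factors rose in both cell types, and those that differed rose more in glia. Of 26, 22 rose and 0 fell in neurons, and 21 rose and 0 fell in glia, and 6 were called as higher in glia and 0 as higher in neurons (23.1%, 5 called without the low-input libraries and 5 to 12 with any 1 library left out). The median difference was -0.46, beside -0.09 over all genes tested. Egr1 encodes a zinc finger factor. Egr1 measured 326, 299 and 124 CPM in kainate neurons and 97.0, 49.9 and 33.0 CPM in sham neurons, and 355, 218 and 147 CPM in kainate glia and 17.1 and 8.78 CPM in sham glia. After kainate the levels in neurons and glia overlapped, whereas in sham every neuron library was above both glia libraries, and the difference was -2.14 ± 0.30 SE (FDR 7.47e-06). Fos, a partner in the AP-1 factor, had the same order of groups. Fos measured 134, 148 and 55.8 CPM in kainate neurons and 21.9, 9.91 and 7.96 CPM in sham neurons, and 419, 176 and 102 CPM in kainate glia and 5.05 and 4.07 CPM in sham glia. Its sham neuron values lay above both sham glia values, the kainate groups overlapped, and the difference was -2.41 ± 0.37 SE (FDR 5.23e-05). Junb, another AP-1 member, had ratios of 1.07, 1.80 and 3.40 in neurons and 3.74 and 4.27 in glia (FDR 0.00134). Mafk and Maff, small Maf factors, rose in glia, Mafk with ratios of 3.24 and 3.12 and Maff with ratios of 3.60 and 2.35, with neuronal effects of 0.57 and 0.33 that were not called. Exons of Junb overlap Prdx2 and those of Mafk overlap Tmem184a on the other strand. With glial libraries left out, calls ended without the low-input libraries or sham glia 1 alone for Maff (-2.18) and without kainate glia 1 for Maff (-2.15). Calls ended also without kainate neurons 2 for Maff (-2.02). Differences still called moved by over 1.5 times without sham glia 1 for Fos (-1.54) and without kainate glia 1 for Fos (-1.55).

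Promoter sequence was set beside the genes called in each direction. RefSeq promoters (GRCm38.p6) were found for 371 of the 502 genes higher in neurons and 187 of the 286 higher in glia, and the 250 bases before each start were searched on both strands. The letters of AP-1 (TGANTCA) stood in 7.05% of the promoters of genes higher in neurons, 6.3% of those higher in glia and 6.26% of those of all genes tested. For CRE (TGACGTCA) these shares were 2.54%, 2.52% and 1.86%, and for its core (TGACGT, which the full CRE holds) 5.87%, 7.98% and 7.28%. For STAT (TTCNNNGAA) they were 7.24%, 9.66% and 6.73%, for NF-kB (GGG, any 2 bases, TTTCC) 0.978%, 1.68% and 1.38%, and for EGR (GCGTGGGCG) 0.587%, 1.68% and 0.686%. The shares are a description without a test, and a match is not a site. The sequences below are promoters of 3 genes with larger rises in glia that hold a match, Fos, Serpina3n and Ppp1r15a, and of Rasa4, which rose in neurons and fell in glia and holds none. They run 5′ to 3′ on the strand of the gene, with matches in capitals.
Fos (chr12:85473640-85473889, plus strand): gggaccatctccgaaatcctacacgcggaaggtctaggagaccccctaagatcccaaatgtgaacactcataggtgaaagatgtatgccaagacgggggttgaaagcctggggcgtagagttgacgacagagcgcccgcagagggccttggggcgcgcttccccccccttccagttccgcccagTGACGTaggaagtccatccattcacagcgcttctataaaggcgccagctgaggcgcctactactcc
Serpina3n (chr12:104406458-104406707, plus strand): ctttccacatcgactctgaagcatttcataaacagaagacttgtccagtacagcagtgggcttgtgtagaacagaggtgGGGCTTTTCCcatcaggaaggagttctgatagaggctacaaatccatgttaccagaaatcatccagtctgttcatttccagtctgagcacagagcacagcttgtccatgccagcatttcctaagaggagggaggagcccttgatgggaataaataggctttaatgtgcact
Ppp1r15a (chr7:45526269-45526518, minus strand): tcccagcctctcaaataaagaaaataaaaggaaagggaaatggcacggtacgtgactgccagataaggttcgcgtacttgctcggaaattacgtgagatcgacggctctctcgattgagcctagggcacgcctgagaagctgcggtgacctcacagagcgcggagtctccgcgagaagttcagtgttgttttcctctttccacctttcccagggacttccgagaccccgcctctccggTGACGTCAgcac
Rasa4 (chr5:136083666-136083915, plus strand): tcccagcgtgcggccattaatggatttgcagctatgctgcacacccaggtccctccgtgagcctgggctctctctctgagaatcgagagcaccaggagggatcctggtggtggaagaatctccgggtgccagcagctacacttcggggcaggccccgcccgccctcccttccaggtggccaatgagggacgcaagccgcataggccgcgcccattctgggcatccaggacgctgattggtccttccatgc

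In Fos the capitals mark a CRE core 66 bases before the start, in Serpina3n an NF-kB match 171 bases before it, and in Ppp1r15a a full CRE 12 bases before it, counted from the first base of the match.

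Where inflammatory genes differed, most had the higher effect in glia. Of 39 NF-kappaB, TNF and interleukin genes, 7 were called as higher in glia and 2 as higher in neurons (23.1%, 6 called without the low-input libraries and 7 to 14 with any 1 library left out). Bcl3, a nuclear partner of NF-kappaB, measured 100.0, 72.2 and 46.3 CPM in kainate glia and 1.09 and 3.67 CPM in sham glia, against 0.285, 2.37 and 5.72 CPM in kainate neurons and 0.0671, 1.35 and 1.45 CPM in sham neurons. Bcl3 rose in both cell types, the glial groups were far apart and the neuronal groups overlapped (difference -3.45 ± 0.54 SE, FDR 5.30e-05). Tnf, tumour necrosis factor, measured 8.65, 7.87 and 8.94 CPM in kainate glia, 0.831 and 0.793 CPM in sham glia and at most 0.585 CPM in any neuron library (difference -3.77 ± 0.78 SE, FDR 0.00410). Tnfrsf12a, the receptor for the cytokine TWEAK, rose in both with ratios of 1.72, 2.03 and 2.53 in neurons and 4.11 and 4.09 in glia. Il1r1, the interleukin-1 receptor, rose in glia (ratios 2.71 and 0.67) with neuronal ratios of -0.71, -0.053 and -0.91, and its difference was -2.21. The exceptions were Nfkbie, an inhibitor of NF-kappaB, and Il18, interleukin-18, with differences of 1.80 and 1.29, both named after their values were seen. Exons of Bcl3 overlap the predicted gene Gm16175. The call was not kept without the low-input libraries or sham glia 1 alone for Il1r1 (-1.23) and without kainate glia 1 for Il1r1 (-1.25). Still called, but moved by over 1.5 times, was the difference without sham glia 1 for Bcl3 (-2.23), without kainate glia 1 for Bcl3 (-2.26) and without kainate glia 3 for Il1r1 (-3.32).

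Of 23 chemokines and receptors, 5 were called as higher in glia and 1 as higher in neurons (26.1%, 5 called without the low-input libraries and 5 to 8 with any 1 library left out). Ccl2, which draws monocytes, measured 31.7, 15.6 and 21.6 CPM in kainate glia and 1.98 and 3.42 CPM in sham glia, and 2.42, 1.53 and 1.58 CPM in kainate neurons and 1.07, 2.38 and 2.03 CPM in sham neurons. It rose in glia alone by call (difference -3.34 ± 0.52 SE, FDR 5.30e-05). Ccl3, a chemokine of myeloid cells, had glial ratios of 2.11 and 3.28 and a difference of -3.08 ± 0.72 SE (FDR 0.0147). Cxcl12, a ligand of CXCR4, was called in the same direction through a fall in neurons, from 74.9, 29.5 and 33.5 to 16.1, 10.9 and 12.2 CPM with no overlap, while glia measured 52.0 and 41.4 CPM in sham and 51.4, 42.5 and 37.4 CPM after kainate. The summed CPM of 7 meningeal fibroblast markers in neurons was lower after kainate in each pair, from 144 to 73.5, from 61.2 to 38.4 and from 59.4 to 34.9, where Dcn and Ogn, matrix proteoglycans, fell, and the part of these markers in the neuronal fall of Cxcl12 was not tested. Cxcl14 fell in glia (ratios -0.83 and -1.34) and was called as higher in neurons.

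Of 36 IL-6 family, JAK-STAT and SOCS genes, 11 rose and 1 fell in neurons, and 19 rose and 1 fell in glia, and 3 were called as higher in glia and 1 as higher in neurons (11.1%, 2 called without the low-input libraries and 2 to 12 with any 1 library left out). Beside Cebpd these were Cebpb, a related factor (ratios 0.47, 1.45 and 1.27 in neurons and 2.56 and 2.33 in glia), and Socs3, the feedback inhibitor of STAT3 signalling. Socs3 measured 39.8, 78.4 and 91.1 CPM in kainate neurons and 3.22, 3.13 and 3.06 CPM in sham neurons, and 650.0, 403 and 375 CPM in kainate glia and 10.7 and 10.3 CPM in sham glia. Socs3 rose in every pair of both cell types, by 4.44 in neurons and 5.55 in glia (difference -1.11 ± 0.33 SE, FDR 0.112). The interferon list, taken next, had 6.45% of its members called, beside 1.94% of all genes tested. Of 31 interferon-stimulated genes, 2 were called, as higher in glia, namely Iigp1, an interferon-induced GTPase (-2.59 ± 0.66 SE, FDR 0.0336), and Irf1, a transcription factor of the interferon response (-1.21 ± 0.37 SE, FDR 0.128), with 0 called without the low-input libraries and 0 to 5 with any 1 library left out. Calls were lost without the low-input libraries or sham glia 1 alone for Cebpb (-1.28), Socs3 (-0.75), Iigp1 (-1.297) and Irf1 (-0.95) and without kainate glia 1 for Cebpb (-1.298), Socs3 (-0.77), Iigp1 (-1.32) and Irf1 (-0.97). Among neurons, calls were lost without kainate neurons 1 for Cebpb (-1.09), Socs3 (-0.78) and Irf1 (-1.09) and without kainate neurons 3 for Irf1 (-1.05). The call was kept but the difference moved by over 1.5 times without kainate glia 3 for Iigp1 (-4.05) and without sham glia 3 for Iigp1 (-4.01).

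Reactive and homeostatic astrocyte genes moved apart. Of 30 reactive astrocyte genes, 18 rose and 0 fell in neurons, and 24 rose and 0 fell in glia, and 10 were called as higher in glia and 1 as higher in neurons (36.7%), with a median difference of -1.29 (3 called without the low-input libraries and 4 to 18 with any 1 library left out). Serpina3n, a secreted protease inhibitor, measured 1161, 665 and 389 CPM in kainate glia and 57.6 and 18.4 CPM in sham glia, and 205, 248 and 121 CPM in kainate neurons and 70.1, 23.8 and 39.1 CPM in sham neurons. Neither cell type showed overlap between treatments, and the glial rise was steeper (difference -2.20 ± 0.34 SE, FDR 5.30e-05). S1pr3, a sphingosine-1-phosphate receptor, measured 104, 123 and 47.1 CPM in kainate glia against 6.07 and 8.83 CPM in sham glia, with neuronal ratios of -0.56, 1.02 and 1.24 (difference -2.60 ± 0.42 SE). Tm4sf1, a membrane protein of the tetraspanin superfamily, and Ecm1, a secreted matrix protein, rose more in glia. Tm4sf1 had ratios of 4.89 and 2.998 in glia and 0.75, 1.51 and 2.37 in neurons, and Ecm1 had 2.21 and 1.98 and 0.46, 0.53 and 0.18. The exception was Vim, the intermediate filament vimentin, which rose more in neurons (ratios 4.27, 1.84 and 2.73) than in glia (1.33 and 1.21). The call for the difference ended without the low-input libraries for Tm4sf1 (-1.39), Ecm1 (-1.60) and Vim (1.61), without kainate glia 1 for Tm4sf1 (-1.40) and Vim (1.58), without sham glia 1 for Tm4sf1 (-1.38) and Vim (1.61) and without kainate glia 3 for Vim (1.45). Of the neuronal libraries, calls ended without kainate neurons 1 for Vim (1.05).

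Of 30 homeostatic astrocyte genes, 19 were called as higher in neurons and 0 as higher in glia (63.3%, 16 called without the low-input libraries and 10 to 19 with any 1 library left out), with a median difference of 1.13. In this list 8 rose and 5 fell in neurons, and 1 rose and 20 fell in glia. Ntsr2, a neurotensin receptor of astrocytes, measured 318, 123 and 48.2 CPM in kainate glia and 780.3 and 261 CPM in sham glia, and 256, 248 and 154 CPM in kainate neurons and 209.7, 111 and 159 CPM in sham neurons. It fell within both glial pairs and the neuronal groups overlapped (difference 2.33 ± 0.32 SE, FDR 6.71e-06). Slc1a2, the main glutamate transporter of astrocytes, measured 648, 298 and 109.6 CPM in kainate glia and 1121 and 299 CPM in sham glia, against 184, 227 and 192 CPM in kainate neurons and 160.0, 104 and 110.2 CPM in sham neurons. It fell in glia and rose in neurons, with all kainate neuron libraries above the sham ones (difference 1.83 ± 0.30 SE, FDR 1.04e-04). Gpc5, a glypican, and Acsl6, a fatty acid ligase, had the same pair of directions, with effects of 0.79 and 1.02 in neurons and -1.01 and -0.60 in glia. The general astrocyte marker Aldh1l1 rose in neurons by 0.73 and had a glial effect of 0.026 that was not called.

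**Figure D3:**
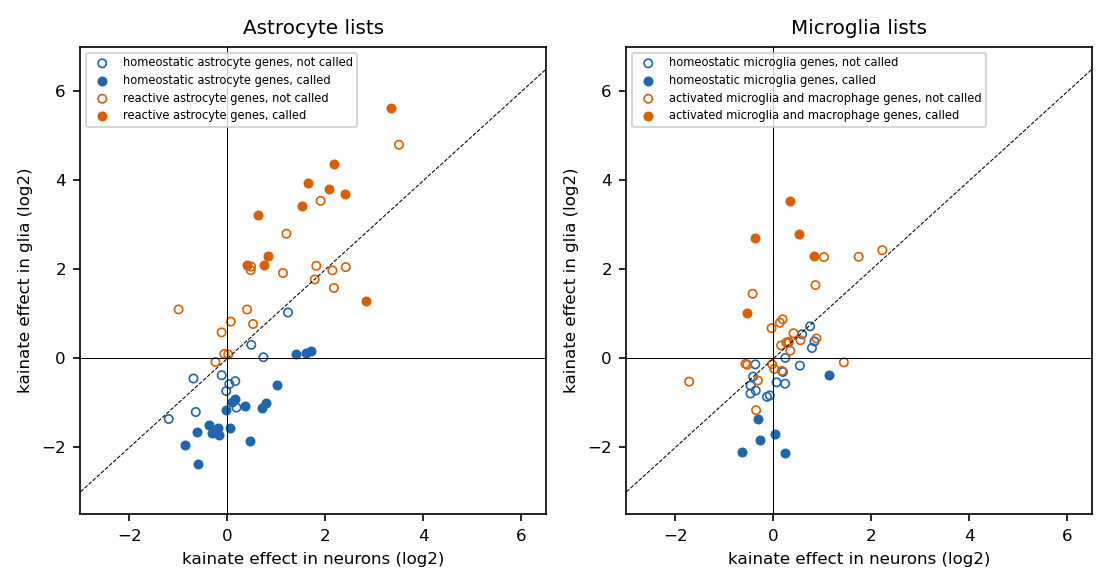
Each circle is a member of a gene list, with its kainate effect in neurons on the x axis and in glia on the y axis (log2 fold change of kainate over sham), filled where the difference between the effects was called, and the dashed line marks equal effects. In both panels the called homeostatic genes (blue) lay below the line, and the called reactive or activated genes (orange) above it apart from Vim.

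Called genes of oligodendrocytes and of surveying microglia likewise had the higher effect in neurons. Of 26 myelin genes, 13 fell and 2 rose in glia, and 6 were called as higher in neurons and 0 as higher in glia (23.1%, 3 called without the low-input libraries and 3 to 8 with any 1 library left out). Mbp, myelin basic protein, measured 2502, 1761 and 640.3 CPM in kainate glia and 4705 and 1762 CPM in sham glia, lower after kainate in both pairs, with a neuronal effect of -0.21 (difference 0.97 ± 0.28 SE, FDR 0.0913). Aspa, the enzyme that splits N-acetylaspartate, and Carns1, carnosine synthase, fell in glia by 1.77 and 2.03. Tspan2, a tetraspanin of myelin, was called instead through a rise in neurons (ratios 1.09, 1.06 and 1.08) beside glial ratios of -0.47 and -0.24. Of 22 precursor and lineage genes, 13 fell and 0 rose in glia, and 5 were called as higher in neurons (4 called without the low-input libraries and 2 to 10 with any 1 library left out). These 5 were 22.7% of the precursor list, beside 1.94% of all genes tested. Cspg4, the NG2 proteoglycan, measured 220.3, 129 and 50.5 CPM in kainate glia and 489 and 161 CPM in sham glia. Gpr17, a receptor of differentiating precursors, fell in both fractions and more in glia (ratios -1.82 and -2.79 against -1.27, -0.95 and -1.11). Its sham means were 10.4 CPM in neurons and 559 CPM in glia, and carry-over from glia was not tested. Matn4, a matrilin, fell in glia by 1.08. With glial libraries left out, calls ended without the low-input libraries or sham glia 1 alone for Carns1 (1.299), without kainate glia 3 for Mbp (0.66) and Gpr17 (0.70) and without sham glia 3 for Mbp (0.70) and Gpr17 (0.73).

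Of 22 homeostatic microglia genes, 6 were called as higher in neurons and 0 as higher in glia (27.3%, 3 called without the low-input libraries and 3 to 11 with any 1 library left out), and 9 fell in glia. P2ry12, the purinergic receptor of surveying microglia, measured 76.1, 36.1 and 20.9 CPM in kainate glia and 437 and 66.2 CPM in sham glia, with 1.76 to 4.36 CPM in neurons. It fell in both fractions, more in glia, with a difference of 1.47 ± 0.34 SE (FDR 0.0134). Gpr34 and Siglech, further surface receptors of microglia, fell in glia by 2.14 and 1.69. Csf1r, the receptor for colony-stimulating factor 1, was called through the neuronal fraction. There it measured 16.6, 24.0 and 30.2 CPM after kainate and 7.99, 12.1 and 12.02 CPM in sham, beside a mean of 518 CPM in sham glia. The part of RNA carried over from glia in the neuronal values of P2ry12 and Csf1r was not tested. Of 30 activated microglia and macrophage genes, 10 rose in glia and 5 were called, all as higher in glia (6 called without the low-input libraries and 4 to 7 with any 1 library left out). These 5 were 16.7% of the activated list, beside 1.94% of all genes tested. Msr1, a scavenger receptor, measured 35.4, 27.1 and 27.4 CPM in kainate glia and 1.92 and 3.52 CPM in sham glia, with at most 2.25 CPM in neurons (difference -3.20 ± 0.499 SE). Cd300lf, an inhibitory receptor of myeloid cells named by its small p, had glial ratios of 4.21 and 2.42 and neuronal ratios of 0.41, -0.44 and 0.75 (difference -3.04 ± 0.47 SE, FDR 4.78e-05). The call was not kept without the low-input libraries or sham glia 1 alone for P2ry12 (1.03) and without kainate glia 1 for P2ry12 (1.01).

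Marker sums of the cell types are set beside these lists. In glia the summed CPM of 10 astrocyte markers went from 5652 to 4102 in pair 1 and from 1555 to 776 in pair 3, that of 10 mature oligodendrocyte markers from 42911 to 29708 in pair 1 and from 9359.8 to 5294 in pair 3, that of 8 precursor markers from 4335 to 2241 in pair 1 and from 1329.5 to 450.1 in pair 3 and that of 10 microglia markers from 4219 to 2341 in pair 1 and from 774 to 792 in pair 3. Neuron markers in glia went from 1242 to 1108 in pair 1 and from 789.7 to 989 in pair 3. In neurons the astrocyte sum went from 422 to 369, from 431 to 487 and from 496 to 548 in pairs 1, 2 and 3, and the mature oligodendrocyte sum from 285 to 228, from 386 to 426 and from 506 to 481. Neither moved the same way in all pairs. The microglia sum in neurons was higher after kainate in each pair, from 77.1 to 82.2, from 51.4 to 74.4 and from 59.2 to 85.5, with Csf1r itself and C1qb, a complement subunit, as the markers that rose and P2ry12 as the marker that fell. The sum of 8 choroid plexus and ependyma markers was higher after kainate in each pair of both cell types, from 45.2 to 114 in pair 1 and from 35.1 to 39.0 in pair 3 of glia and from 47.5 to 68.1, from 48.3 to 86.3 and from 39.2 to 43.8 in neurons, with Ttr, transthyretin, called in glia and Kl, klotho, in both, and none of these markers called for the difference. In glia the sums of endothelial cells went from 29.8 to 35.2 in pair 1 and from 56.2 to 56.3 in pair 3, of pericytes from 168 to 130.2 in pair 1 and from 91.7 to 65.1 in pair 3, of meningeal fibroblasts from 105 to 87.9 in pair 1 and from 75.1 to 62.2 in pair 3 and of blood cells from 102 to 101 in pair 1 and from 68.2 to 78.4 in pair 3. In neurons the endothelial sum was lower after kainate in each pair, from 14.6 to 9.82, from 30.6 to 21.1 and from 30.9 to 30.4, and the pericyte sum was higher in each, from 15.7 to 16.9, from 29.9 to 32.7 and from 36.9 to 44.7. Fewer nuclei of a type and less RNA per nucleus cannot be told apart in these libraries, and the part of the marker sums in the differences was not tested.

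Growth and ribosome genes that differed mostly rose more in glia. Of 30 Myc, polyamine and ribosome biogenesis genes, 16 rose in glia and 4 in neurons, and 6 were called as higher in glia and 1 as higher in neurons (23.3%, 4 called without the low-input libraries and 5 to 8 with any 1 library left out). Myc itself rose in both, from 15.7 and 9.82 to 120.4, 94.8 and 75.2 CPM in glia and from 9.60, 9.16 and 5.58 to 22.1, 23.9 and 22.8 CPM in neurons, more in glia (difference -1.40 ± 0.33 SE, FDR 0.0177). Gnl3, a nucleolar GTPase, Nop56, a core protein of nucleolar particles, and Azin1, an activator of polyamine synthesis, rose in glia by 1.61, 1.05 and 1.46 with neuronal effects of 0.12, -0.12 and 0.24 that were not called. Tma16, a factor of ribosome assembly, was named by its small p, with glial ratios of 2.06 and 2.14 and neuronal ratios of 0.31, -0.22 and 0.19 (difference -2.01 ± 0.29 SE, FDR 2.00e-05). Slc39a14, a zinc transporter, had ratios of 2.20 and 2.66 in glia and 0.17, 0.55 and 0.69 in neurons, and Pdxk, pyridoxal kinase, had 2.02 and 1.27 and -0.20, -0.25 and -0.69. Calls were lost without the low-input libraries for Myc (-1.40).

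Of 28 heat shock genes, Hspa1a and Hspa1b, the inducible HSP70 genes, were called as higher in glia (2 called without the low-input libraries and 2 to 4 with any 1 library left out in the list). Hspa1a had ratios of 1.83 and 2.99 in glia and 0.21, -0.31 and 1.21 in neurons, and Hspa1b had 1.66 and 3.24 and 0.22, -0.33 and 1.41. These copies are near-identical and only uniquely mapped reads were counted, so reads shared by both would be lost and their levels are uncertain. Hspb3, a small heat shock protein, rose in neurons by 2.19 and was called as higher there. The heat shock list thus had 3 called members (10.7%, beside 1.94% of all genes tested). Of 25 integrated stress response genes, Ppp1r15a, which restarts translation under stress, measured 128, 42.1 and 33.2 CPM in kainate glia and 23.3 and 8.23 CPM in sham glia, against 27.6, 19.7 and 20.2 CPM in kainate neurons and 27.3, 20.2 and 11.1 CPM in sham neurons. The glial groups were apart and the neuronal groups overlapped (difference -1.96 ± 0.34 SE, FDR 3.25e-04). The stress response list had 3 called members (12%). Cebpb was the other called as higher in glia, and Vldlr, a lipoprotein receptor, fell in glia and was called as higher in neurons (0.89 ± 0.28 SE, with 1 called without the low-input libraries and 1 to 7 with any 1 library left out in the list). Of 19 Gadd45 and DNA methylation genes, Gadd45a rose in glia (ratios 1.69 and 2.04) with neuronal ratios of -0.23, 0.75 and 0.58, and Tet1, an enzyme that oxidises methylated cytosine, fell in glia from 103 and 65.7 to 34.4, 39.1 and 34.2 CPM while neurons measured 31.9, 36.8 and 36.7 CPM in sham and 28.9, 52.8 and 36.3 CPM after kainate. With Gadd45b the list had 3 called members (15.8%). Of this list, called members numbered 1 called without the low-input libraries and 2 to 4 with any 1 library left out. The call for the difference ended without the low-input libraries for Hspb3 (1.88), Cebpb (-1.28), Vldlr (0.77), Gadd45a (-1.68) and Tet1 (1.06), without kainate glia 1 for Hspb3 (1.86), Cebpb (-1.298), Vldlr (0.75) and Tet1 (1.05) and without sham glia 1 for Hspb3 (1.88), Cebpb (-1.28), Vldlr (0.77) and Tet1 (1.06). Of the neuronal libraries, calls ended without kainate neurons 1 for Hspb3 (1.97), Cebpb (-1.09) and Gadd45a (-1.20) and without kainate neurons 3 for Hspb3 (2.17) and Vldlr (0.71). Differences still called moved by over 1.5 times without kainate glia 3 for Hspa1b (-1.26) and without sham glia 3 for Hspa1b (-1.23).

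Matrix and adhesion genes were divided between the cell types. Of 46 collagens and matricellular genes, 6 were called as higher in neurons and 3 as higher in glia (19.6%, 5 called without the low-input libraries and 5 to 12 with any 1 library left out). Col5a3, a collagen V chain, rose in neurons from 12.8, 16.3 and 22.8 to 51.6, 71.7 and 80.5 CPM with glial ratios of 0.29 and 0.0027 (difference 1.85 ± 0.29 SE, FDR 7.05e-05). Col16a1, a collagen associated with fibrils, rose in glia from 120.1 and 117 to 532, 676 and 393 CPM and had a called effect of 0.54 in neurons (difference -1.41 ± 0.29 SE). Sparcl1, a matricellular protein of astrocytes, fell in glia (ratios -0.86 and -1.27). Of 31 matrix proteases and inhibitors, 3 and 5 were called as higher in neurons and glia (25.8%, 2 called without the low-input libraries and 2 to 9 with any 1 library left out). Adamts1, a metalloprotease, rose more in glia (ratios 3.13 and 2.69 against 1.71, 1.76 and 1.09), and Timp3, an inhibitor of metalloproteases, rose in neurons by 0.74 with -0.58 in glia. Of 34 syndecans, glypicans, integrins and partners, 4 and 5 were called (26.5%, 2 called without the low-input libraries and 2 to 12 with any 1 library left out). Itga5, the fibronectin receptor subunit, rose more in glia (ratios 3.72 and 2.65 against 0.81, 0.92 and 2.10), as did Flnc, an actin crosslinker (6.08 and 1.95 against 0.56, 0.47 and 1.40). With glial libraries left out, calls ended without the low-input libraries or sham glia 1 alone for Adamts1 (-1.17), Itga5 (-1.35) and Flnc (-1.10) and without kainate glia 1 for Itga5 (-1.37) and Flnc (-1.12). Still called, but moved by over 1.5 times, was the difference without kainate glia 3 for Flnc (-5.30) and without sham glia 3 for Flnc (-5.27).

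In the remaining lists, Tubb6, a beta-tubulin, and Nes, the filament nestin, rose in both and more in glia, with differences of -1.91 and -1.34. Of 25 glucocorticoid receptor genes and targets, Crispld2, a secreted protein, rose in neurons from 1.81, 4.48 and 3.32 to 18.4, 34.3 and 19.7 CPM (difference 2.21 ± 0.40 SE, FDR 7.35e-04), Map3k6, a stress kinase, rose more in glia (-2.09 ± 0.39 SE), and Tsc22d3, a leucine zipper protein induced by glucocorticoids, fell in glia (1.35 ± 0.34 SE). These 3 were 12% of that list. Of 27 prostaglandin and sphingosine-1-phosphate genes, Ptgs1, cyclooxygenase-1, rose in neurons from 8.86, 6.83 and 7.96 to 30.2, 22.7 and 46.8 CPM with glial ratios of -0.62 and 0.48 (difference 2.10 ± 0.33 SE, FDR 6.91e-05). S1pr1 fell in glia by 1.15 while S1pr3 rose there, and Sphk1, a sphingosine kinase, rose in both with a difference of -1.29. The prostaglandin and sphingosine-1-phosphate list had 4 called (14.8%, 3 called without the low-input libraries and 3 to 7 with any 1 library left out), and the glucocorticoid list 3 of 25 (4 called without the low-input libraries and 3 to 6 with any 1 library left out). Lcat and Srebf1, of cholesterol transport and lipid synthesis, Aldoc, a glycolytic aldolase of astrocytes, and Vtn, vitronectin, fell in glia by 1.68, 0.74, 1.504 and 1.02 and were called as higher in neurons. Cry1, a clock repressor, rose in glia by 1.24 with a difference of -1.17. Of 32 cytoskeleton genes, 3 were called (9.38%, 0 called without the low-input libraries and 0 to 4 with any 1 library left out), of 28 cholesterol genes 2 (7.14%, 1 called without the low-input libraries and 0 to 4 with any 1 library left out), of 26 glycolysis genes 1 (3.85%, 1 called without the low-input libraries and 0 to 4 with any 1 library left out), of 21 clock genes 1 (4.76%, 1 called without the low-input libraries and 0 to 5 with any 1 library left out) and of 27 endothelial and pericyte genes 3 (11.1%, 1 called without the low-input libraries and 1 to 5 with any 1 library left out), beside 1.94% of all genes tested, which 1 call in lists of this size comes close to. The call was not kept without the low-input libraries or sham glia 1 alone for Tubb6 (-1.66), Nes (-0.84), Sphk1 (-0.095), Lcat (1.60), Srebf1 (0.94), Vtn (1.66) and Cry1 (-0.97), without kainate glia 1 for Tubb6 (-1.68), Nes (-0.86), Sphk1 (-0.12), Srebf1 (0.92) and Cry1 (-0.99), without kainate glia 2 for Cry1 (-1.17), without kainate glia 3 for Tsc22d3 (0.66), Lcat (1.10), Srebf1 (0.73), Aldoc (0.36) and Vtn (0.88) and without sham glia 3 for Tsc22d3 (0.70), Lcat (1.13), Srebf1 (0.77), Aldoc (0.40) and Vtn (0.92). On the neuronal side the call ended without kainate neurons 1 for Srebf1 (0.81) and Vtn (0.98), without kainate neurons 2 for Cry1 (-0.53) and without kainate neurons 3 for Lcat (1.37), Srebf1 (0.79) and Vtn (1.36). The call was kept but the difference moved by over 1.5 times without sham glia 1 for Tsc22d3 (2.03) and Aldoc (1.87), without kainate glia 1 for Aldoc (1.85), without kainate glia 3 for Sphk1 (-2.70) and without sham glia 3 for Sphk1 (-2.66).

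No member was called for the difference, at an FDR below 0.25 by edgeR's quasi-likelihood test, in 5 of the 40 lists, which were synaptic vesicle (32 genes), complement (22), cell cycle (31), apoptosis and necroptosis (30) and oxidative phosphorylation (36) genes. At an unadjusted p below 0.05 there were 1, 3, 1, 4 and 0 members, and DESeq2's Wald test called 1, 1, 1, 3 and 0 of them. With 1 library left out at a time the quasi-likelihood test called up to 4 (without kainate or sham glia 3), 3 (without sham glia 3), 3 (without kainate or sham neurons 2), 2 (without either library of glia pair 3 or of neuron pair 2) and 0. In these lists the members with the smallest p had differences of 0.89 ± 0.35 SE for Slc17a6, a vesicular glutamate transporter, 1.45 ± 0.504 SE for Serping1, the C1 inhibitor, -0.99 ± 0.35 SE for Mcm6, a replication helicase subunit, -0.79 ± 0.28 SE for Bcl2l1, which encodes Bcl-xL, and 0.41 ± 0.34 SE for Sdhc, a subunit of complex II.

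**Figure D4:**
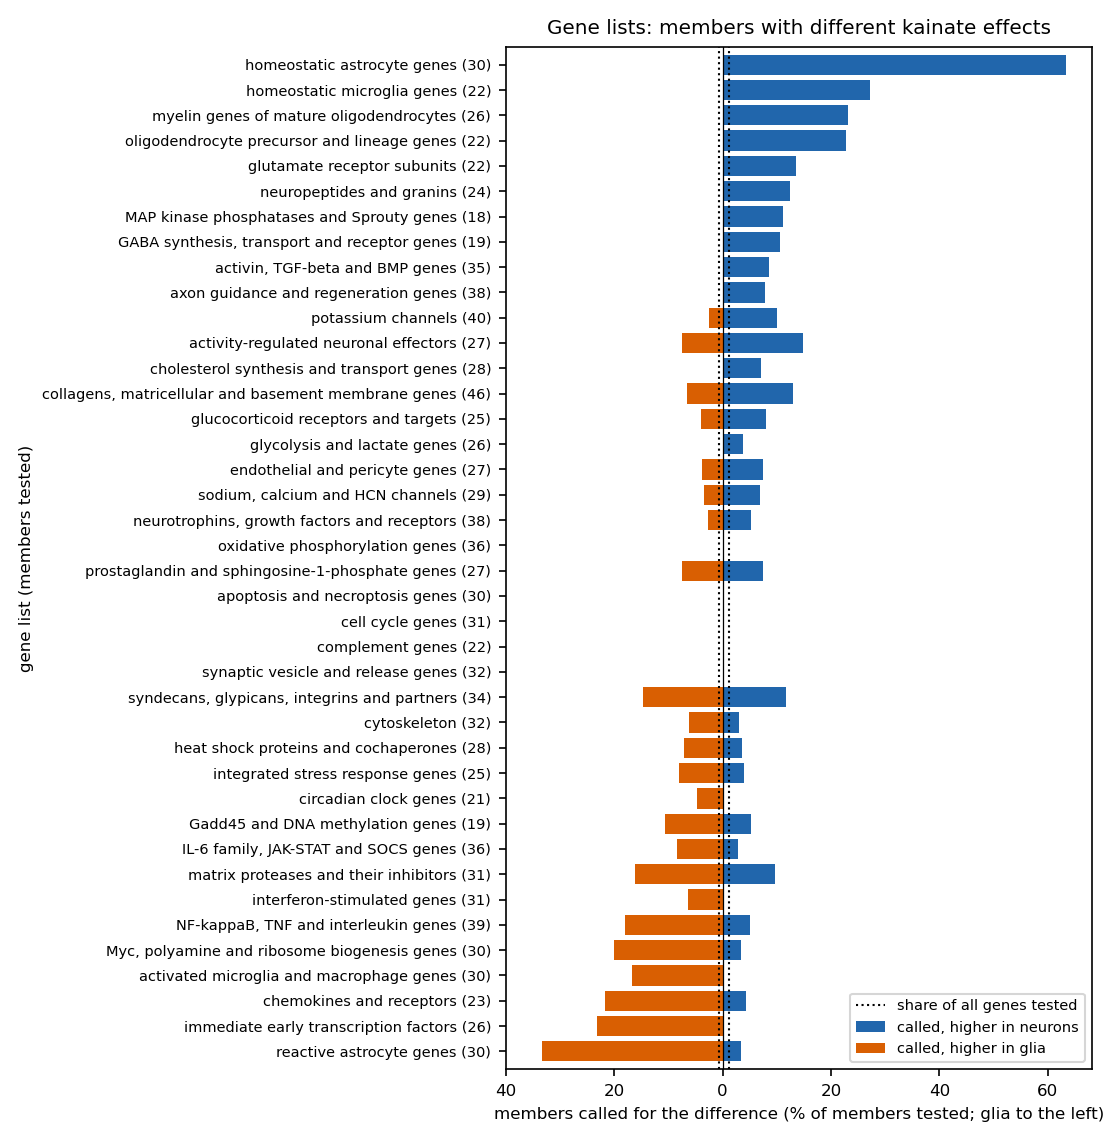
Bars give the share of members tested, in %, that were called as higher in neurons (blue, to the right) or in glia (orange, to the left) for each of 40 gene lists, with the number tested in parentheses, and dotted lines mark the shares over all genes tested (1.23% and 0.702%). Homeostatic astrocyte genes stand at the upper end with 63.3% and reactive astrocyte genes at the lower end.

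Effects of opposite sign were called for 44 genes that rose in neurons and fell in glia and for 12 that fell in neurons and rose in glia. These calls depend on the block: 0 genes had called opposite effects without it, 0 with the pool as the block and 3 with the shared block. In sham nuclei the level was higher in neurons than in glia for 3 of the 44 and for 8 of the 12, beside 47.1% of the genes not called. Sham levels enter the choice of these genes, which sways both counts. Pla2g7, which inactivates platelet-activating factor, had the smallest p. Pla2g7 measured 62.5, 35.9 and 50.1 CPM in kainate neurons and 23.6, 8.76 and 17.6 CPM in sham neurons, and 132, 28.1 and 15.7 CPM in kainate glia and 322 and 72.1 CPM in sham glia. It rose in all 3 neuronal pairs and fell in both glial pairs, and its 3 neuronal kainate values lay above all sham values (difference 3.39 ± 0.32 SE, FDR 2.72e-10). Rasa4, a calcium-promoted inhibitor of Ras, measured 88.4, 60.9 and 84.5 CPM in kainate neurons and 26.3, 16.02 and 19.5 CPM in sham neurons, and 28.0, 32.6 and 29.3 CPM in kainate glia and 54.4 and 41.4 CPM in sham glia. Treatments did not overlap in either cell type, so that after kainate neurons stood above glia and in sham below (difference 2.66 ± 0.32 SE, FDR 1.43e-07). Plxnb1, the receptor for semaphorin 4D, had ratios of 0.77, 1.27 and 1.15 in neurons and -0.903 and -1.304 in glia. Exons of these 3 genes overlap other genes (1700071M16Rik, Gm15701 and Gm7628).

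Adamts6, a secreted metalloprotease, had ratios of 1.49, 2.27 and 1.45 in neurons and -0.89 and -0.43 in glia. Pipox, an oxidase of pipecolic acid, had 1.70, 2.39 and 2.17 and -1.27 and -0.41. Tyro3, a receptor tyrosine kinase for Gas6 and protein S, had 0.75, 0.75 and 0.56 and -1.10 and -1.31. Adgrg1, the adhesion receptor GPR56, and Chst5, a carbohydrate sulfotransferase, completed the 8 genes named in this direction, with differences of 1.92 and 3.21. In all 8 genes each of the 3 neuronal ratios was above 0 and both glial ratios were below 0, which the choice of genes with called effects of opposite sign largely sets.

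In the other direction, Strip2, a component of striatin complexes, measured 49.1, 16.7 and 15.7 CPM in kainate neurons and 48.7, 44.0 and 39.5 CPM in sham neurons, and 31.0, 43.5 and 30.6 CPM in kainate glia and 8.18 and 12.6 CPM in sham glia. Kainate was lower in neuronal pairs 2 and 3 and not in pair 1, and all kainate glia values lay above the sham ones (difference -2.50 ± 0.37 SE, FDR 2.14e-05). Add3, gamma-adducin of the membrane skeleton, had ratios of -0.59, -1.03 and -0.88 in neurons and 0.81 and 1.28 in glia, and B3galt5, a galactosyltransferase, had -0.88, -0.89 and -1.40 and 0.52 and 0.77. Both genes fell in every neuronal pair and rose in both glial pairs. Lpl, lipoprotein lipase, had ratios of -0.73, -0.65 and -0.27 in neurons and 0.92 and 1.11 in glia, and Il1rap, the accessory protein of the interleukin-1 receptor, had -0.38, -0.18 and -1.09 and 0.56 and 0.97. Lonrf3, with RING and LON domains, Adam8, a metalloprotease of the cell surface, and Synm, the filament protein synemin, had differences of -2.43, -1.94 and -1.66, and in Lonrf3 and Adam8, as in Strip2, 1 neuronal pair was not lower after kainate.

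**Figure D5:**
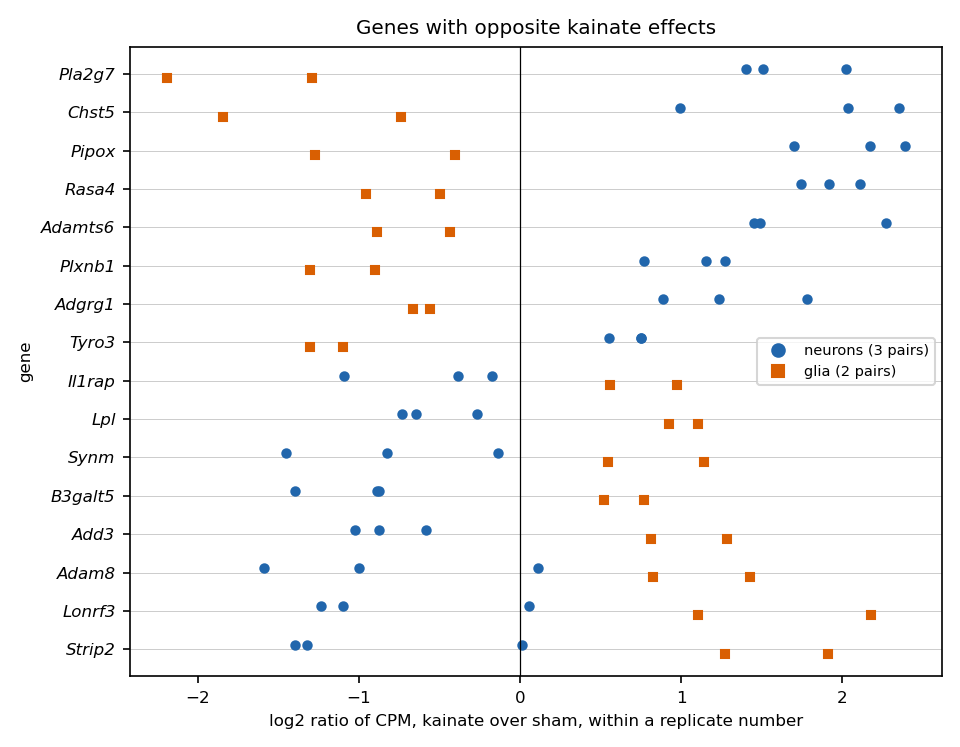
Rows are the 16 named genes with opposite effects, and the x axis is the log2 ratio of normalised CPM, kainate over sham, within a replicate number, for 3 neuronal pairs (blue circles) and 2 glial pairs (orange squares). The upper 8 genes have neuronal ratios above 0 and glial ratios below 0, and the lower 8 the reverse, apart from 1 neuronal pair each in Strip2, Lonrf3 and Adam8, a pattern that the choice of genes largely sets.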

How the data were processed

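The deposited values are raw counts of 53379 genes in 11 mRNA-seq libraries. Per the labels and the study's methods, nuclei were sorted by NeuN, RNA was amplified with an oligo(dT) primed kit, reads were trimmed with Trim Galore 0.4.3, aligned to mm10 with Rsubread and counted by the authors with featureCounts on uniquely mapped reads and GENCODE annotation. The strand setting is not given in the sources used here. The kit does not mark strand, and exons of 45 of the 149 genes named overlap another gene on the other strand. The labels' protocol names right hippocampi where the titles and the methods name the left. Libraries were sequenced on different instruments, which the labels do not tie to libraries. Bisulfite values were not analysed here.

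After removal of 105 genes with no symbol, filterByExpr of edgeR (at least 10 counts in enough libraries and 15 in all) kept 40714. Counts were scaled by TMM and fitted with edgeR's quasi-likelihood model (glmQLFit, legacy=TRUE, glmQLFTest) on the 4 group means with block columns for the replicate numbers of neurons and of glia (3 residual degrees of freedom). P-values were adjusted by Benjamini-Hochberg over all genes tested. The block by replicate number was part of the comparison as it was set. Deviations from the group means correlated within every pair (r = 0.643, 0.161 and 0.491 in neurons, 0.760 and 0.787 in glia, across genes). With 2 sham glia libraries their deviations mirror each other, so the 2 glial values are not separate checks. Libraries of unlike number were not compared, so the correlations cannot show that the numbers pair the samples. The labels do not say what a number shares. Pair ratios use log2 CPM with a prior count of 2.

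Genes named are the 12 with the smallest p in each direction (mean CPM of at least 2, no predicted genes, pair ratios of neurons and glia apart), up to 8 with opposite effects in each direction, up to 4 called members of each of 40 lists (up to 2 others where fewer than 2 were called) and 6 markers. Members and lists were chosen with earlier results of these data known. Positions are from GENCODE M21 (GRCm38) and promoters from RefSeq. On simulated data with known changes the fit recovered most large changes and few of the smallest, and the share of false calls lay somewhat above the threshold. Alternatives were other blocks, DESeq2's size factors and Wald test, other filters, edgeR's newer method, a robust fit, an FDR below 0.05, genes without a symbol, and leaving out each library or both low-input libraries. The tools were edgeR 4.0.16 and DESeq2 1.42.0 in R 4.3.3. P-values measure the spread left within replicate numbers after the block has taken out the spread between them. They rest on 3 residual degrees of freedom and on 48.0 prior degrees of freedom, drawn from the spread of all genes.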

Additional observations from a re-analysis of the deposited data

Results flagged for a closer look

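In every result here the kainate effect differed between neurons and glia by the test of that difference itself. No group held 4 or more libraries, so no library could be tested as standing apart from its group. The counts were 502 genes with a higher effect in neurons, 286 with a higher effect in glia and 56 with opposite effects, and 130 of the 149 genes chosen by rule had a called difference, a count that the rule itself largely sets, since it takes the smallest p and called members.

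Among the genes with opposite effects, the log2 differences of neurons minus glia were 3.39 for Pla2g7, 2.66 for Rasa4, 2.18 for Plxnb1, 2.40 for Adamts6, 2.96 for Pipox, 1.89 for Tyro3, 1.92 for Adgrg1 and 3.21 for Chst5. These rose in neurons and fell in glia. For the genes that fell in neurons and rose in glia they were -2.50 for Strip2, -1.88 for Add3, -1.70 for B3galt5, -2.43 for Lonrf3, -1.94 for Adam8, -1.57 for Lpl, -1.66 for Synm and -1.31 for Il1rap.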

How the results depend on the processing

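The counts of genes higher in neurons, higher in glia and with opposite effects were 502, 286 and 56. They were 1, 0 and 0 without the replicate block, 7, 2 and 0 with the pool as the replicate block and 32, 22 and 3 with a replicate block shared by both cell types, and the smallest FDR without the block was 0.0705. They were 694, 288 and 72 with DESeq2's size factors, 970, 346 and 109 with DESeq2's Wald test, 563, 379 and 58 with no filter on low counts, 397, 240 and 59 for genes that reach 1 CPM in 3 libraries or more, 296, 173 and 47 with edgeR's newer quasi-likelihood method, 478, 261 and 56 with a robust fit, 224, 116 and 13 at an FDR below 0.05, 503, 288 and 56 over genes with or without a symbol and 184, 90 and 13 without both low-input libraries. With 1 library left out at a time the counts ranged from 191 to 954, 92 to 1829 and 13 to 105, with the lowest for genes higher in neurons or glia without sham glia 1 and the highest without sham glia 3. The lone sham glia library that then remains is assumed to vary like the other groups. Of the 788 calls, 256 were still called without sham glia 1 and 643 without sham glia 3. With 1 library left out at a time, the log2 difference ranged from -5.03 to 3.07 for Trh and from -0.055 to 3.75 for Gal. Both changed sign without kainate glia 3 (-4.99 and -0.055) and without sham glia 3 (-5.03 and -0.022), and the cause was not tested beyond the Trh count of 0 in sham glia 1. No other called gene of those named changed sign under any of the 23 alternatives. DESeq2's size factors moved the median difference of all genes from -0.09 to -0.029, and the share of calls higher in neurons was 73.7% with DESeq2's Wald test, 33.6% without kainate glia 3 and 34.3% without sham glia 3. The number of pools, with a glial effect from 2 pairs, limits the precision.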
